A study of Mus musculus with 12 samples.

Results

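The livers of fed mice labelled Nts-/- were compared with the livers of fed mice labelled Nts+/+, across all genes of the deposited count table. These are 6 of the 12 samples of the series, 3 mice of each genotype, and they were chosen by their genotype and feeding labels alone. The study asked how neurotensin acts on lipid and mitochondrial metabolism of the liver, and the other 6 mice were fasted for 22 h. All mice were females of 4 months on normal chow, and the fed mice had free access to food. The label Nts-/- stands for a deletion in the whole body, not in the liver alone, and the counts of Nts, given below, go against it. Both genotypes were bred from Nts+/- parents, and the study used littermates matched for age and sex without naming the litters. The fed Nts+/+ mice are mice 254, 257 and 323, and the fed Nts-/- mice are mice 277, 303 and 319. Each library is the liver RNA of 1 mouse, so p-values measure the spread between mice.

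Neurotensin is a peptide of the gut and the brain that is released after fat enters the intestine, and it acts through the receptors encoded by Ntsr1 and Ntsr2 and through the sorting receptor sortilin, encoded by Sort1. The liver takes up the nutrients of a meal from portal blood, stores or exports them as glycogen and lipoproteins, and secretes most plasma proteins. Hepatocytes supply most of the RNA of a liver sample, and Kupffer cells, which are the resident macrophages of the sinusoids, supply a small part.

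The 6 libraries held between 21999647 and 34316274 counts, and between 2.24% and 5.18% of the counts were on genes of the mitochondrial DNA, with overlap between the genotypes. All 11 hepatocyte markers in the table were counted, and the serum albumin gene Alb alone had between 87181 and 114601 CPM (counts scaled to the size of the library, and in all values of this text except those of Nts also by the TMM factors of edgeR). The closest pairs of fed mice were 277 with 303 and 254 with 257, with a median absolute log2 difference per gene of 0.189 and 0.203. Mice 303 and 319, both labelled Nts-/-, were the farthest pair, at 0.311. Genes with long transcripts tended to have higher values in mice 277 and 303, where the longest of 10 transcript length bins of about equal size had a median of 0.17 and 0.13 (log2, centred over the fed mice), and lower values in mouse 319, at -0.13. Across the 10 bins the median log2 difference between the genotypes ran from -0.07 in the shortest to 0.10 in the longest, and values without mouse 319 or with this trend removed are given beside several of the lists whose median they move.

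The targeted gene went against its labels. Nts had 0 counts in mice 254, 257 and 323, which are labelled Nts+/+, and 46, 40 and 15 counts in mice 277, 303 and 319, which are labelled Nts-/-. This was 1.17 ± 0.485 CPM (SD, n = 3, not TMM-scaled) against 0, and with 3 counts taken as the floor of each Nts+/+ library it was at least 9.79-fold higher in the libraries labelled Nts-/-. The fasted mice had the same pattern, with 0 counts in mice 265, 282 and 322, labelled Nts+/+. Mice 284, 290 and 295, labelled Nts-/-, had 12, 4 and 18 counts. The table gives 1 count per gene, so where on the gene these reads lie was not analysed here. Every direction below is therefore that of the deposited labels. Ntsr1 had 0 counts in all 6 fed mice, Ntsr2 had 1 count in mouse 319 and 0 in the other 5, and Sort1 was at 17.7, 11.4 and 11.0 CPM in mice labelled Nts+/+ and at 16.0, 11.3 and 14.2 CPM in mice labelled Nts-/-. The groups overlapped for Sort1, with a log2 fold change of 0.05 (SE 0.22).

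No gene passed an adjusted p under 0.05 in the quasi-likelihood test of edgeR (0 of 13812 tested genes, 0%). The smallest adjusted p was 0.304, for Nts. Before adjustment, 876 genes had a p under 0.05 (6.34%), of which 417 had a higher mean (3.02%) and 459 a lower mean (3.32%) in livers labelled Nts-/-. All 3 mice labelled Nts-/- lay above all 3 mice labelled Nts+/+ for 664 genes (4.81%) and below them for 808 genes (5.85%), and over all tested genes the median log2 fold change was 0.01, with 51.8% above 0. In the same test run on counts simulated at these depths with 100 genes changed 2-fold and 100 changed 4-fold, 56 and 91 were called, and 9 of 13438 unchanged genes as well. The simulated counts held no transcript length trend and no shift shared by the genes of a mouse. How many real changes of these sizes would be called here was therefore not tested. The Wald test of DESeq2 called 12 genes (0.0869%), with 882 at an unadjusted p under 0.05. They include Nts, Nr1i3, Pdap1, Slc35g1, Wfdc17, Sec61g, Fabp1, Esm1, Mup18, the pseudogene Rpl38-ps2 and the predicted gene Gm20431. Since no gene passed the test of edgeR, the genes below are described by their values, and a low unadjusted p marks only where in the ranking a gene stood.

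The gene with the smallest p after Nts was Nr1i3 (ENSMUSG00000005677, chromosome 1 from 171213970 to 171220701), which encodes CAR, the constitutive androstane receptor, a nuclear receptor of hepatocytes that switches on genes for the clearance of drugs, steroids and bilirubin. It was at 191, 148 and 139.5 CPM in mice 254, 257 and 323 and at 91.9, 93.4 and 78.9 CPM in mice 277, 303 and 319. The highest mouse labelled Nts-/- lay well below the lowest mouse labelled Nts+/+. The log2 fold change was -0.86 (SE 0.15), with an adjusted p of 0.356 in edgeR and of 0.000197 in DESeq2. In the fasted livers, which are other mice, the difference had the opposite sign, 0.32 (SE 0.15), and all 3 fasted mice labelled Nts-/- lay above all 3 labelled Nts+/+. Cyp2b10, the target gene by which CAR activity is commonly read, was at 39.7, 48.5 and 16.2 CPM in mice labelled Nts+/+ and at 30.1, 56.1 and 39.4 CPM in mice labelled Nts-/-. The groups overlapped for Cyp2b10, with a log2 fold change of 0.26 (SE 0.86) that was -0.076 without mouse 323.

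Fabp1 (chromosome 6 from 71199827 to 71205023) encodes the liver fatty acid binding protein, which carries long-chain fatty acids in the hepatocyte cytosol and is among the most abundant liver mRNAs. It was at 4088, 3510.1 and 3419 CPM in mice 254, 257 and 323 and at 1906, 2159.6 and 2672 CPM in mice 277, 303 and 319. The groups lay apart, with a log2 fold change of -0.71 (SE 0.17) and an adjusted p of 0.709 in edgeR and 0.0483 in DESeq2, while fasted livers gave 0.32 (SE 0.17). The stretches upstream of both genes are shown since they are the abundant liver genes with the lowest p. They are RefSeq promoters of build GRCm38.p6, from 250 bases before the RefSeq start to the last base before the gene in the deposited table, and capitals mark the half-site AGGTCA that nuclear receptors bind, or TGACCT on the other strand.

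Nr1i3, chr1:171213720-171213969, plus strand: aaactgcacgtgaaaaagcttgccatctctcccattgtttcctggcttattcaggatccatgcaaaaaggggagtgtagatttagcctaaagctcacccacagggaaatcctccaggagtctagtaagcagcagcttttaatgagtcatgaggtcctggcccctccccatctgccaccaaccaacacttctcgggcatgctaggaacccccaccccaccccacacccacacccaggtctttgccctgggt
Fabp1, chr6:71199629-71199826, plus strand: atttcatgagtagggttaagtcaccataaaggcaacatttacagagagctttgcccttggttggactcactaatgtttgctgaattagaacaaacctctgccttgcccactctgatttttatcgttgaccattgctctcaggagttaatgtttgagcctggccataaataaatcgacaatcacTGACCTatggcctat

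The Nr1i3 stretch held 0 copies of this half-site and the Fabp1 stretch held 1, on the other strand. Over all 32851 promoters, 14.0% held at least 1 copy on either strand in a window as long as that of Nr1i3 and 11.3% in one as long as that of Fabp1.

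Of the other 13 genes with a lower mean in livers labelled Nts-/- that were named for the smallest p (mean of at least 1 CPM and no overlap between the genotypes), 4 are described first. Taf15 and Taf1d encode factors associated with the TATA-binding protein, Polr2l a subunit shared by the nuclear RNA polymerases, and Snapc5 a subunit of the complex that starts snRNA genes. Their log2 fold changes were -0.76 (SE 0.19) for Taf15, -0.75 (SE 0.19) for Taf1d, -0.79 (SE 0.19) for Polr2l and -0.57 (SE 0.14) for Snapc5. Sec61g encodes a small subunit of the channel through which new proteins enter the endoplasmic reticulum, and it was at 11.6, 11.0 and 7.05 CPM in mice labelled Nts+/+ against 3.52, 2.17 and 4.83 CPM in mice labelled Nts-/-. The Sec61g difference was the largest of the 15, -1.50 (SE 0.34). Slc35g1, a membrane transporter gene, was at 20.4, 20.1 and 19.0 CPM against 7.86, 7.28 and 14.7 CPM, a log2 fold change of -1.0 (SE 0.21), and without mouse 319 it passed edgeR's threshold (-1.39, adjusted p 0.00117). Gabarapl1, an ATG8-family gene of the autophagosome membrane, had -0.72 (SE 0.17), Rdh9, a retinol dehydrogenase gene, -0.74 (SE 0.17), and Ctss, the lysosomal protease cathepsin S of macrophages and other antigen-presenting cells, -0.62 (SE 0.16). The remaining 4, Pdap1, Wfdc17, Pllp and Rp9, lay between -0.81 and -0.59.

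Of the 15 genes named for a higher mean, Rsad2, the interferon-induced antiviral enzyme viperin, was at 10.7, 9.64 and 11.5 CPM in mice labelled Nts+/+ and at 14.4, 19.0 and 17.1 CPM in mice labelled Nts-/-. It had nearly the same log2 fold change in fed livers, 0.66 (SE 0.19), and in fasted livers, 0.69 (SE 0.19). Iglc1, a constant region of the immunoglobulin lambda light chain that marks B and plasma cells, was at 0.517, 0.957 and 0.887 CPM against 2.54, 1.56 and 1.69 CPM, which gave 1.30 (SE 0.32) in fed and 1.03 (SE 0.32) in fasted livers. The summed B and plasma cell markers overlapped between the genotypes. Lims1, an adaptor of integrin adhesions, Cxadr, a tight junction protein and adenovirus receptor, and Cpm, a membrane carboxypeptidase, had log2 fold changes of 0.62 (SE 0.15), 0.43 (SE 0.12) and 0.85 (SE 0.23). Fdft1, the first enzyme committed to sterol synthesis, was the member of the cholesterol list named here, with 0.87 (SE 0.23). The other 8 were Stard3nl, Faap100, Etl4, Ubqln2, Kctd7, Ppp1r14b, Synj2 and Hlcs, between 0.49 and 0.98.

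The fasted mice did not choose these genes. In them, 11 of the 15 genes with a higher fed mean had the same sign, 4 at an unadjusted p under 0.05 (Stard3nl, Iglc1 and Rsad2 among them). Of the 15 genes with a lower fed mean, 6 had the same sign, 1 at an unadjusted p under 0.05 (Taf1d). Over all tested genes 51.1% had the same sign in fed and fasted livers. The same sign with an unadjusted p under 0.05 in fasted livers was found for 401 of 13812 genes. Of either sign, 4.96% had an unadjusted p under 0.05 in fasted livers.

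**Figure D1:**
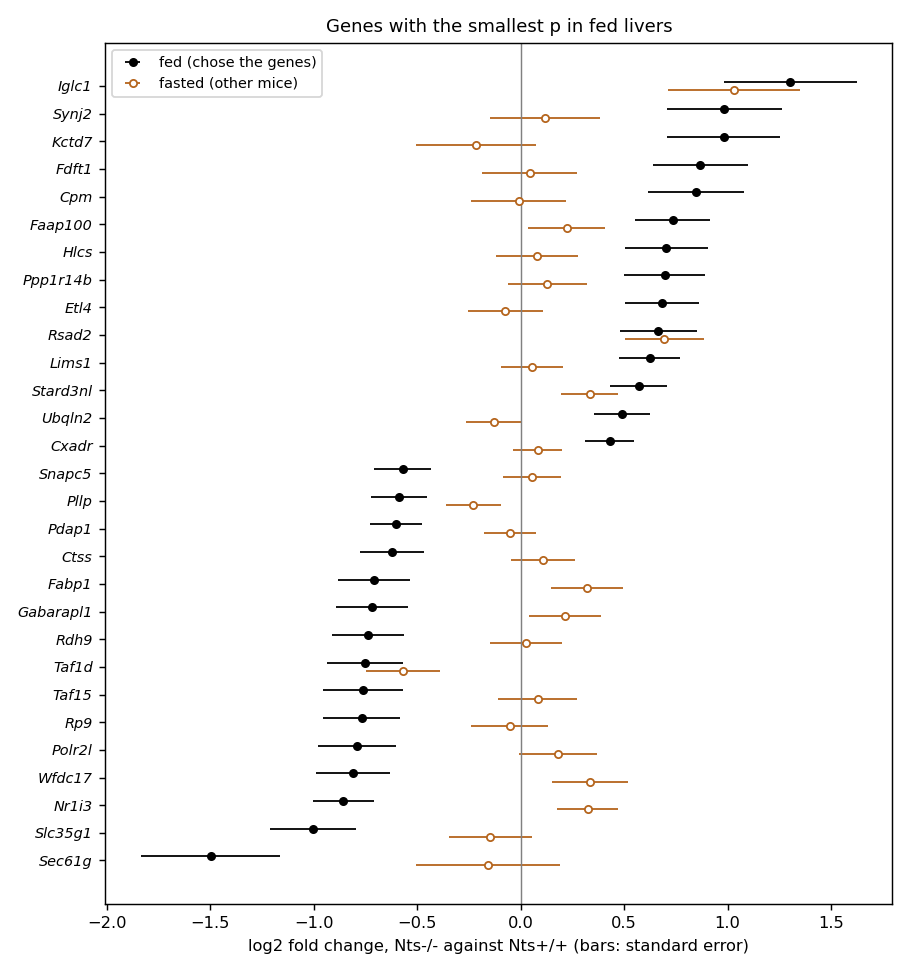
Log2 fold change of livers labelled Nts-/- against Nts+/+ (x axis) for the genes named here for the smallest p in fed livers (y axis), with standard errors, in the 6 fed mice that chose the genes (filled) and the 6 fasted mice (open). The fed values run from -1.50 for Sec61g to 1.30 for Iglc1, and Iglc1, Rsad2 and Taf1d are among the few whose fasted values lie beside the fed ones.

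Markers of Kupffer cells and macrophages had lower levels in livers labelled Nts-/-. All 14 markers of the list had a lower mean, 6 of them at an unadjusted p under 0.05 (3.32% of all tested genes had a lower mean at that p), and for 9 of the 14 the groups did not overlap (5.85% of all tested genes). The median log2 fold change of the list was -0.43, against 0.01 over all tested genes. Summed over the 14 markers, the level was 843, 870.2 and 872 CPM in mice 254, 257 and 323 and 709, 631 and 534 CPM in mice 277, 303 and 319. The sums of the genotypes lay apart, with mouse 319 lowest. Without mouse 319 the median was -0.40 and 12 of 14 had a lower mean, and with mouse 277 left out it was -0.59. In bulk RNA, fewer cells of a type and less RNA per cell cannot be told apart.

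C1qa, C1qb and C1qc encode the 3 chains of complement C1q, which liver macrophages make, and lie side by side on chromosome 4 from 136880129 to 136898803. C1qc was at 77.3, 85.8 and 59.3 CPM in mice labelled Nts+/+ and at 50.9, 43.2 and 49.4 CPM in mice labelled Nts-/-, a log2 fold change of -0.63 (SE 0.19). C1qb was at 78.8, 83.4 and 71.2 CPM against 60.6, 47.9 and 54.5 CPM (-0.52, SE 0.17). C1qa had the smallest gap of the 3, 75.9, 75.9 and 66.3 CPM against 56.3, 44.2 and 61.3 CPM (-0.43, SE 0.20). All 3 genes had their groups apart, and their adjusted p in edgeR was 0.734, 0.734 and 0.777.

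Genes that are nearly exclusive to Kupffer cells in mouse liver lay the same way. Clec4f, a lectin receptor by which mouse Kupffer cells are recognised, was at 152, 163 and 178 CPM in mice labelled Nts+/+ and at 136, 122 and 108 CPM in mice labelled Nts-/-, a log2 fold change of -0.43 (SE 0.18). Cd5l, a secreted scavenger protein of tissue macrophages, was at 148, 159.6 and 164 CPM against 122, 109 and 86.4 CPM (-0.57, SE 0.19). Folr2, the folate receptor of resident macrophages, was at 19.8, 22.3 and 19.4 CPM against 15.1, 14.4 and 8.30 CPM (-0.70, SE 0.21). In each of these genes the lowest mouse labelled Nts+/+ was above the highest mouse labelled Nts-/-. The scavenger receptor gene Marco had the largest difference, from 20.1, 12.5 and 38.0 CPM to 5.79, 3.69 and 6.20 CPM (-2.16, SE 1.03, unadjusted p 0.0658), with a wide spread. Vsig4, a complement receptor, and Timd4, a receptor for dying cells, also had their groups apart (-0.38, SE 0.22, and -0.61, SE 0.34). The rest of the list, Csf1r (-0.29, SE 0.23), Adgre1 (-0.43, SE 0.42), Cd68 (-0.36, SE 0.24), Mpeg1 (-0.11, SE 0.22) and Cd163 (-0.17, SE 0.39), overlapped between the genotypes.

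**Figure D2:**
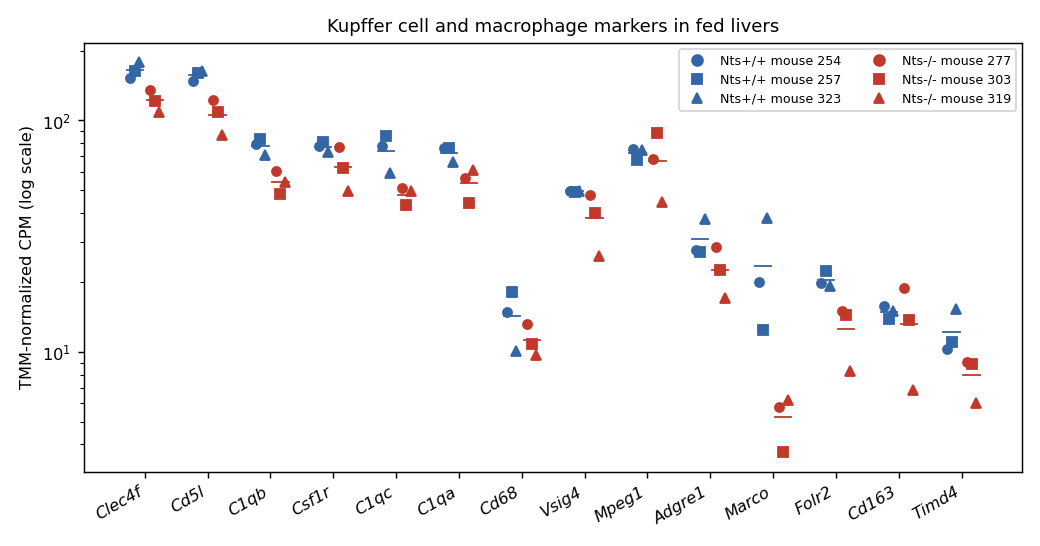
TMM-normalized CPM (y axis, log scale) of the 14 Kupffer cell and macrophage markers (x axis) in each fed mouse, blue for mice labelled Nts+/+ and red for mice labelled Nts-/-, with 1 symbol per mouse and a line at each group's mean. For Clec4f, Cd5l, C1qa, C1qb, C1qc, Folr2, Marco, Vsig4 and Timd4 every red symbol lies below every blue one, and mouse 319 (red triangle) lies lowest for Clec4f, Cd5l, Folr2, Vsig4 and Timd4.

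The same list did not lie apart in fasted livers, where its sum was 521 to 753 CPM in mice labelled Nts-/- and 429 to 710.2 CPM in mice labelled Nts+/+ and its median log2 fold change was 0.13. The stretches upstream of 3 of the markers are shown as examples of macrophage promoters among the genes that lay apart. Capitals mark GAGGAA, a sequence that the macrophage factor PU.1 can bind, or TTCCTC on the other strand. Shorter or other forms of its site are not marked.

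C1qb, chr4:136886201-136886450, minus strand: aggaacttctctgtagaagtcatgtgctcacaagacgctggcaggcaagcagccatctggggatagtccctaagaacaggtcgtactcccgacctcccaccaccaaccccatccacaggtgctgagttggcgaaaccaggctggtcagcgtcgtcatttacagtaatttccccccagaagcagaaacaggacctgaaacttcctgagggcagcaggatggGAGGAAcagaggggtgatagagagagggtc
Cd5l, chr3:87357631-87357880, plus strand: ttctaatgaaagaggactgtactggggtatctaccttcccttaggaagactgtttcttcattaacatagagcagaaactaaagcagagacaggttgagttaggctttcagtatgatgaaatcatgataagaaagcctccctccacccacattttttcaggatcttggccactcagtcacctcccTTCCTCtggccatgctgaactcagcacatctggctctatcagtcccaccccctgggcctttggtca
Clec4f, chr6:83656188-83656366, minus strand: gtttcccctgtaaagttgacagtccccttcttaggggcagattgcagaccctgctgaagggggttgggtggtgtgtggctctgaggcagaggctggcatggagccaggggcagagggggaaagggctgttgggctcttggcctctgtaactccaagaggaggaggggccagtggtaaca

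C1qb and Cd5l held 1 copy of this exact sequence each, C1qb on the strand of the gene and Cd5l on the other, and Clec4f held 0. A copy on either strand was found in 23.3% of all promoters in a window as long as that of C1qb and Cd5l, and in 17.1% in one as long as that of Clec4f.

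The lists of other cell types were read in the same way. Of 8 tested monocyte and neutrophil markers 7 had a lower mean, with a median of -0.50, which is below that of the Kupffer list, and of -0.31 without mouse 319. None of the 8 was at an unadjusted p under 0.05, and 1, the granulocyte colony-stimulating factor receptor gene Csf3r, had its groups apart (-0.64, SE 0.30). Their sum was 25.4, 13.1 and 22.9 CPM in mice labelled Nts+/+ and 22.5, 10.5 and 10.6 CPM in mice labelled Nts-/-, and in fasted livers their median was 0.31. The summed markers of hepatocytes, monocytes and neutrophils, T and NK cells, B and plasma cells, sinusoidal and vascular endothelium, stellate cells and fibroblasts, cholangiocytes, adipocytes and erythroid cells all overlapped. Of 13 tested T and NK cell markers 11 had a lower mean, with a median of -0.23 (-0.39 without mouse 319), and Cd3g, a chain of the T cell receptor complex, was at 1.37, 1.10 and 1.42 CPM against 0.794, 0.652 and 0.886 CPM (-0.73, SE 0.31). The summed T and NK markers were 14.2 to 16.3 CPM in mice labelled Nts+/+ and 11.4 to 14.4 CPM in mice labelled Nts-/-, so that mouse 319 lay within the other group. Of 11 tested markers of vascular endothelium 7 had a higher and 4 a lower mean. The list's median was 0.01, as over all tested genes, and -0.05 without mouse 277. On the higher side 3 had their groups apart (4.81% of all tested genes). Among these were Dll4, a Notch ligand of arterial and sinusoidal endothelium, at 0.58 (SE 0.26) and Ackr1, a chemokine receptor of venules, at 0.84 (SE 0.36). Mesothelial markers summed to 1.48 to 1.68 CPM in mice labelled Nts+/+ and 1.81 to 3.62 CPM in mice labelled Nts-/-, which did not overlap, and Krt14 was at 0. Their counts were low, so that 3 of the 8 markers were tested, and 1 when 10 counts were required in each fed mouse. In fasted livers the median of the 3 was -0.45 and the sums overlapped. Markers of other nearby tissues were low but not all absent, and their sums overlapped. Intestinal markers summed to 43.1 to 96.8 CPM in mice labelled Nts+/+ and 51.0 to 57.2 CPM in mice labelled Nts-/-. Pancreatic acinar markers summed to 11.2 to 13.7 CPM against 7.69 to 12.8 CPM. Skeletal muscle markers summed to 0.48 to 0.80 CPM against 0.32 to 0.83 CPM. Of 11 pancreatic acinar markers 7 had no count in any fed mouse, as had 6 of 10 intestinal and 3 of 8 skeletal muscle markers.

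Major urinary proteins are lipocalins that hepatocytes secrete in large amounts, that carry pheromones in mouse urine and whose genes respond to growth hormone and to sex. Of the 17 tested members on chromosome 4, 15 had a lower mean in livers labelled Nts-/-, 7 of them at an unadjusted p under 0.05 (3.32% of all tested genes), and 6 lay below without overlap between the genotypes (5.85% of all tested genes). Their median log2 fold change was -1.45, the lowest of the 56 gene lists examined. With at least 10 counts required in each fed mouse, 10 members were tested, 3 of them lower at an unadjusted p under 0.05, and the median was -0.68. Summed over the family, the level was 4032, 4615 and 5333 CPM in mice 254, 257 and 323 and 2803, 2687 and 1611 CPM in mice 277, 303 and 319. The sums lay apart and mouse 319 was lowest, and without it the list's median was -1.05 with 14 of 17 lower. In fasted livers the sums overlapped and the median was 0.02.

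Mup3 supplied most of that sum, at 3318, 3223 and 3847 CPM in mice labelled Nts+/+ and at 2377, 2356 and 1417 CPM in mice labelled Nts-/-, a log2 fold change of -0.76 (SE 0.23). Mup11 was at 304, 281 and 337 CPM against 88.4, 92.7 and 14.5 CPM (-2.24, SE 0.65). Mup18 had the largest gap of those 3, from 161, 464 and 196 CPM to 5.56, 17.3 and 0.685 CPM (-5.12, SE 1.31, adjusted p 0.719 in edgeR and 0.00634 in DESeq2). Every mouse labelled Nts-/- was below every mouse labelled Nts+/+ for these genes. Mup20, which encodes the male pheromone darcin, overlapped, at 86.5, 95.7 and 164 CPM against 157, 74.2 and 159 CPM (0.18, SE 0.41). Most of the family are near-identical copies, so the estimated counts of single members are uncertain, and the 3 promoter stretches below are shown because they make that likeness visible. Capitals mark the longest run of bases that all 3 share.

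Mup3, chr4:62087343-62087567, minus strand: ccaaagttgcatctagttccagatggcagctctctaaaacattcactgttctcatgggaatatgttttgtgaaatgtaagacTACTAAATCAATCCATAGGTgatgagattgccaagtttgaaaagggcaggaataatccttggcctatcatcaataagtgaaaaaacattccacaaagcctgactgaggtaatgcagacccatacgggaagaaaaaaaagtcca
Mup11, chr4:60662412-60662645, minus strand: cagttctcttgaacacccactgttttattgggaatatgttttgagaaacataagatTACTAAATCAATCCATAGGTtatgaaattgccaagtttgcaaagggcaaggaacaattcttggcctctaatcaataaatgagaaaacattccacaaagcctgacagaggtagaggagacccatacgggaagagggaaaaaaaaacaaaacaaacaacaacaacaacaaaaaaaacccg
Mup18, chr4:61674137-61674344, minus strand: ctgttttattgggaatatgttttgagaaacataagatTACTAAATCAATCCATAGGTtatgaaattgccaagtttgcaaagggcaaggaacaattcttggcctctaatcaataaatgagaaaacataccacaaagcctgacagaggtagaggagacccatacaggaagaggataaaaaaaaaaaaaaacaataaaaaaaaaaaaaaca

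The shared run is 20 bases long. Aligned without counting gaps, the Mup11 and Mup18 stretches were identical at 199 of 208 bases (95.7%), while Mup3 and Mup11 were identical at 85.9% and Mup3 and Mup18 at 86.1%.

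**Figure D3:**
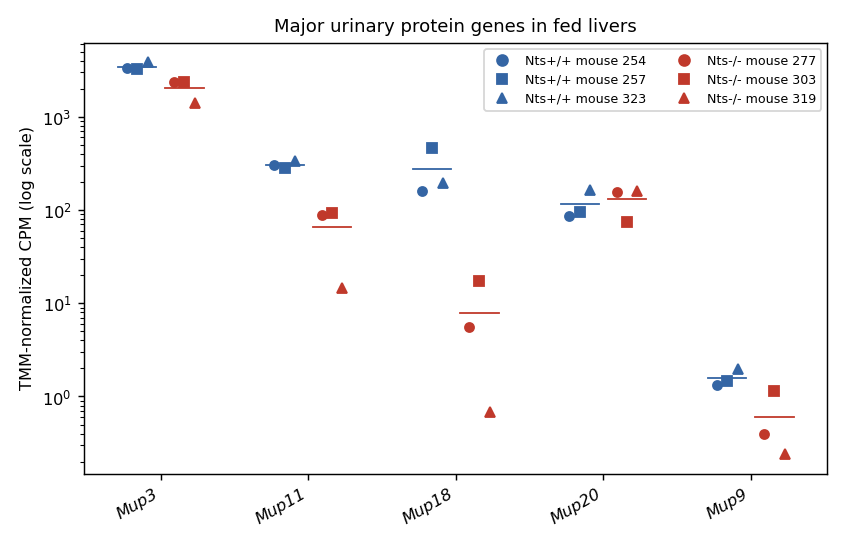
TMM-normalized CPM (y axis, log scale) of 5 major urinary protein genes (x axis) in each fed mouse, blue for mice labelled Nts+/+ and red for mice labelled Nts-/-, with 1 symbol per mouse and a line at each group's mean. The groups are apart for Mup3, Mup11, Mup18 and Mup9, while Mup20 overlaps, and mouse 319 (red triangle) is lowest for Mup3, Mup11, Mup18 and Mup9.

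Other genes that differ between male and female livers were read as well, since all mice were female. Of 19 genes of the male side, which include Mup20, 16 had a lower mean in livers labelled Nts-/-, with a median of -0.40. Hsd3b5, a steroid dehydrogenase of male liver, was at 2.03, 1.07 and 3.06 CPM against 0.873, 0.109 and 0.161 CPM (-2.32, SE 0.61). In mice 303 and 319 its values were near the floor of 3 counts, which is 0.116 and 0.125 CPM before TMM scaling. It was the only 1 of the 19 at an unadjusted p under 0.05, near the share of 3.32% of all tested genes that were lower at that p. The P450 gene Cyp2d9 was at 65.0, 42.9 and 39.8 CPM against 37.5, 23.2 and 31.3 CPM (-0.68, SE 0.36), with the groups apart. The male side had a median of -0.54 in fasted livers too. Of 21 genes of the female side 13 had a lower mean, with a median of -0.16 that was 0.08 without mouse 319, and none was at an unadjusted p under 0.05. Within the female side the P450 gene Cyp3a44 was at 46.9, 71.0 and 126 CPM in mice labelled Nts+/+ and lower in all 3 mice labelled Nts-/-, at 20.9, 32.7 and 2.46 CPM. A1bg, a secreted plasma protein gene, was at 219, 112 and 223 CPM in mice labelled Nts+/+ and at 223, 611 and 339 CPM in mice labelled Nts-/-.

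Cytochromes P450 of families 1 to 3, the enzymes of drug and steroid oxidation, had a lower mean for 36 of 41 genes in livers labelled Nts-/-, with a median of -0.23. Their sums lay apart, at 23199 to 25792 CPM in mice labelled Nts+/+ and 16701 to 22209 CPM in mice labelled Nts-/-. At an unadjusted p under 0.05 were 2 of the 41, near the share of 3.32% over all tested genes, and 0 with the length trend removed, and 5 had the groups apart (5.85% of all tested genes lay below). Cyp2e1, the ethanol-inducible enzyme of hepatocytes around the central vein, was at 5883, 5198 and 6752 CPM against 5089.8, 4783 and 3244 CPM (-0.44, SE 0.19). Slc1a2, a glutamate transporter of the hepatocytes next to the central vein, was at 154, 145 and 153 CPM against 101, 121 and 61.8 CPM (-0.67, SE 0.20). Both were lower in every mouse labelled Nts-/-, and both were lowest in mouse 319. Of 17 tested pericentral genes 13 had a lower mean (median -0.18), but without mouse 319 their median was 0.03, and that of the P450 genes -0.14 with 27 of 41 lower. The 18 periportal genes had a median of 0.06. Among 37 conjugating enzymes the median was -0.09, with Ugt2b37, a glucuronosyltransferase, at 6.35, 10.3 and 16.7 CPM against 3.41, 3.29 and 5.24 CPM (-1.48, SE 0.42).

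Plasma proteins of the acute phase, which hepatocytes secrete in inflammation, had a lower mean for 21 of 23 tested genes, with a median of -0.29. Fga, the fibrinogen alpha chain, was at 5870.3, 5104 and 4732 CPM in mice labelled Nts+/+ and at 4327, 3316 and 4549 CPM in mice labelled Nts-/- (-0.37, SE 0.16). Hp, haptoglobin, was at 2653, 2764 and 2624 CPM against 2167, 1281 and 2390.2 CPM (-0.46, SE 0.22), with mouse 303 lowest. Both had their groups apart, as had Saa2, Saa4 and Lbp, while Orm1, an orosomucoid, overlapped at -0.47 (SE 0.20). Of 39 complement and coagulation genes, which share the fibrinogen genes, 30 had a lower mean and 7 had their groups apart (C1ra, C1s1, Cfi, Mbl1, F7, F10 and Fga), with a median of -0.16. Only 2 of each list were lower at an unadjusted p under 0.05, near the 3.32% of all tested genes for the complement and coagulation list, and 5.85% of all tested genes lay below without overlap. With each fed mouse left out in turn, the number on the lower side was 20 to 23 of the acute phase genes and 29 to 33 of the complement and coagulation genes, with medians between -0.38 and -0.21 and between -0.19 and -0.10. The sums of both lists lay apart. Acute phase genes summed to 37933 to 40658 CPM in mice labelled Nts+/+ and 28663 to 37785 CPM in mice labelled Nts-/-. Complement and coagulation genes summed to 48023 to 50934 CPM against 40009 to 47558 CPM.

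**Figure D4:**
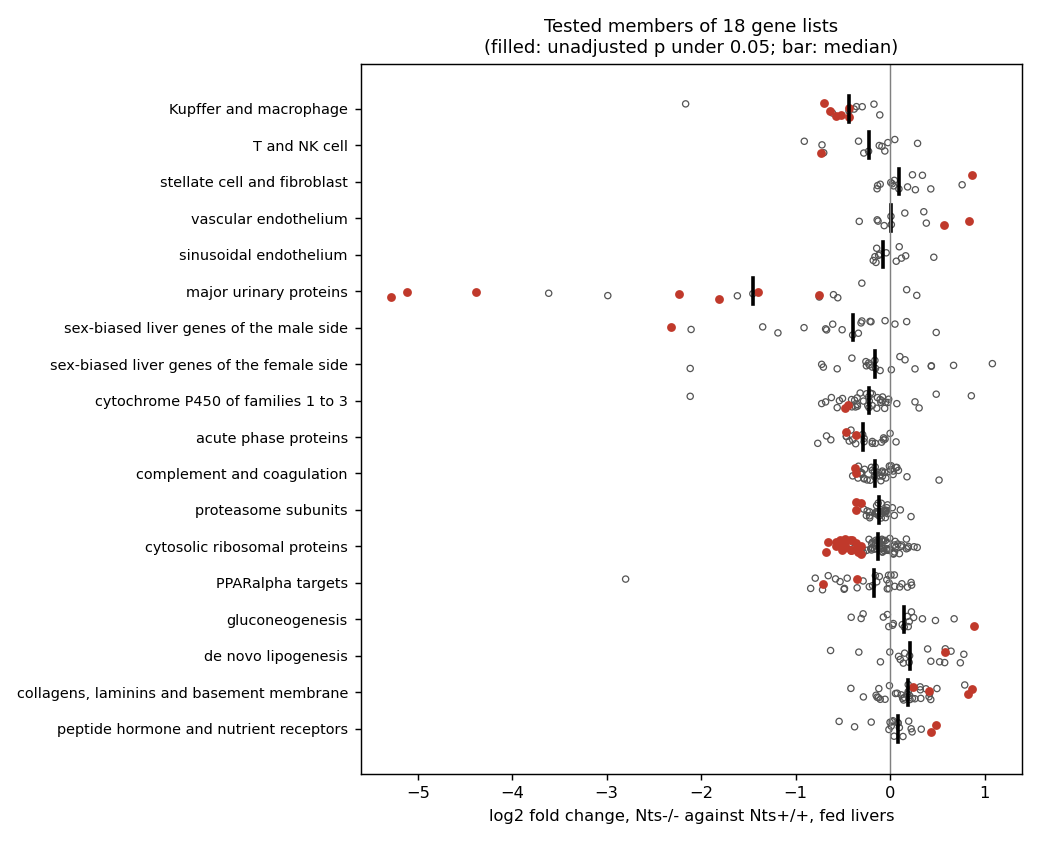
Log2 fold change of livers labelled Nts-/- against Nts+/+ in fed mice (x axis) for each tested member of 18 gene lists (y axis), filled where the unadjusted p was under 0.05, with a bar at each list's median. The major urinary proteins reach -5.29 with Mup15, the Kupffer cell and macrophage markers lie left of 0 in all 14 members, and most collagens and laminins lie right of 0.

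Proteins of the cytosolic ribosome had a lower mean for 59 of 75 genes, 21 of them at an unadjusted p under 0.05 (3.32% of all tested genes), with a median of -0.13. Rpl21 was at 257, 248 and 199 CPM in mice labelled Nts+/+ and at 143, 155 and 191 CPM in mice labelled Nts-/- (-0.53, SE 0.17), and Rpl30 was at 189, 159 and 131 CPM against 87.2, 108 and 127 CPM (-0.57, SE 0.18). The sum over the list showed that mouse 319 stood on the other side. It was 13815 to 15487 CPM in mice labelled Nts+/+, 11381 and 12166 CPM in mice 277 and 303, and 16435 CPM in mouse 319. Without mouse 319 the median was -0.33 with 42 of 75 genes at an unadjusted p under 0.05, without mouse 277 it was -0.03 with 6, and with the trend of transcript length removed it was -0.09 with 18. Ribosomal protein transcripts are short, and the share of this trend in the list's difference was not tested beyond that value. Proteasome subunits had a lower mean for 32 of 36 genes with a median of -0.12 (-0.20 without mouse 319), and Psmd7, a subunit of the 19S cap, was at 67.2, 74.5 and 74.1 CPM against 56.3, 50.7 and 61.6 CPM (-0.36, SE 0.12). The sums of the proteasome list overlapped, again through mouse 319.

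Genes of the extracellular matrix and basement membrane were more often on the higher side. Of 35 collagens, laminins and related genes 26 had a higher mean in livers labelled Nts-/-, with a median of 0.19. At an unadjusted p under 0.05 were 4 of them (3.02% of all tested genes), and 6 had the groups apart (4.81% of all tested genes). Nid1, nidogen, which links laminin to collagen IV, was at 12.5, 11.5 and 10.9 CPM against 16.4, 17.2 and 12.9 CPM (0.41, SE 0.14). Col3a1, a fibrillar collagen, was at 13.4, 13.4 and 10.6 CPM against 17.6, 16.0 and 16.8 CPM (0.43, SE 0.20), and Col1a1 overlapped at 0.87 (SE 0.35). Sparc, a collagen-binding protein, had a smaller difference, 0.24 (SE 0.11), with the groups apart. The list's sum overlapped between the genotypes, its median was 0.10 without mouse 323 and 0.15 with the length trend removed, and in fasted livers it was -0.01. Stellate cell and fibroblast markers had a median of 0.09 (0.25 without mouse 319).

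Genes of carbohydrate and insulin signalling varied less. Insr, the insulin receptor, was at 85.2, 80.8 and 66.9 CPM in mice labelled Nts+/+ and at 119, 111 and 85.2 CPM in mice labelled Nts-/- (0.44, SE 0.15). Its groups met at 85.2 CPM without overlapping, and the difference was 0.34 without mouse 277 and 0.33 with the length trend removed. Pck2, the mitochondrial PEPCK, was at 1.85, 1.73 and 3.10 CPM against 3.41, 3.80 and 5.12 CPM (0.89, SE 0.32), while the main gluconeogenic enzymes Pck1 (-0.31, SE 0.49) and G6pc (-0.41, SE 0.31) overlapped. The 19 gluconeogenesis genes had a median of 0.15 and 13 had a higher mean, the 28 genes of glycolysis and glycogen had a median of -0.03, and the 20 genes of insulin signalling 0.11. The insulin signalling median was 0.03 with the length trend removed and -0.0006 without mouse 277. Igfbp3, a carrier of insulin-like growth factors, had a log2 fold change of 0.64 (SE 0.23), and Esr1, the estrogen receptor, 0.48 (SE 0.20), both with overlap.

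Lipid genes outside sterol synthesis lay in both directions. De novo lipogenesis had a higher mean for 15 of 19 genes and a median of 0.21 (0.32 without mouse 319), and Gpam, which starts triglyceride synthesis, was at 110.03, 129 and 81.6 CPM against 182, 200.2 and 96.6 CPM (0.58, SE 0.25), with mouse 319 within the other group. The list's sums overlapped between the genotypes. They were 12113, 13638 and 5812 CPM in mice 254, 257 and 323. In mice 277, 303 and 319 they were 14436, 17780 and 11560 CPM. Targets of PPARalpha, the fatty acid receptor that drives oxidation in fasting, had a lower mean for 24 of 32 genes and a median of -0.17, which was 0.02 without mouse 323 and -0.27 without mouse 319. Among the genes the study singles out, the fatty acid transporter gene Cd36 was at 37.0, 49.3 and 43.4 CPM against 41.2, 87.9 and 55.6 CPM (0.51, SE 0.28), and Ppargc1a (0.25, SE 0.34), Tfam (0.04, SE 0.15), Acadl (-0.14, SE 0.13) and Hadha (-0.02, SE 0.11) overlapped too. Lists of triglyceride synthesis, apolipoproteins, bile acid genes and fatty acid uptake had medians between -0.08 and 0.00. Of these, only fatty acid uptake had sums that lay apart, at 7404 to 8394 CPM in mice labelled Nts+/+ and 6108 to 6535 CPM in mice labelled Nts-/-. Such a sum follows the most abundant members, and of the 16 tested genes of this list 7 had a higher and 9 a lower mean. For reference, the lists of OXPHOS subunits and of cholesterol synthesis had medians of -0.13 and 0.66, and of -0.22 and 0.91 without mouse 319.

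Of the 19 tested genes of the circadian clock list 7 had a higher and 12 a lower mean, and their median was -0.04. Rora was the only one at an unadjusted p under 0.05, near the share of 3.02% of all tested genes that were higher at that p. With the length trend removed, and with only the 6 fed mice fitted, 0 clock genes were higher at that p.

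Interferon-stimulated genes showed no common direction. Of 40 genes 22 had a higher and 18 a lower mean, with a median of 0.03. Ifit1, an antiviral RNA-binding protein, was at 11.7, 11.1 and 14.5 CPM in mice labelled Nts+/+ and at 21.2, 34.1 and 14.9 CPM in mice labelled Nts-/- (0.91, SE 0.38), in the direction of Rsad2. Cxcl9, a chemokine that draws T cells, was at 39.1, 32.2 and 24.6 CPM against 16.3, 17.1 and 21.7 CPM (-0.80, SE 0.35), and Bst2, tetherin, at 219.8, 248 and 155 CPM against 108, 125 and 156 CPM (-0.68, SE 0.23). MHC class II genes had a lower mean for 8 of 9, with a median of -0.22 (-0.43 without mouse 319) and overlap between the groups for each. The lists of ATF4 targets, endoplasmic reticulum chaperones, heat shock proteins, NRF2 targets, p53 targets and the cell cycle had medians between -0.19 and 0.06 (between -0.27 and -0.01 without mouse 319). At an unadjusted p under 0.05, 2 of 27 ATF4 genes, Ppp1r15a and Sars, were lower (3.32% of all tested genes). Abcc4, 1 of 23 NRF2 genes, was higher at that p (3.02% of all tested genes), and the other lists named had no gene at it.

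**Figure D5:**
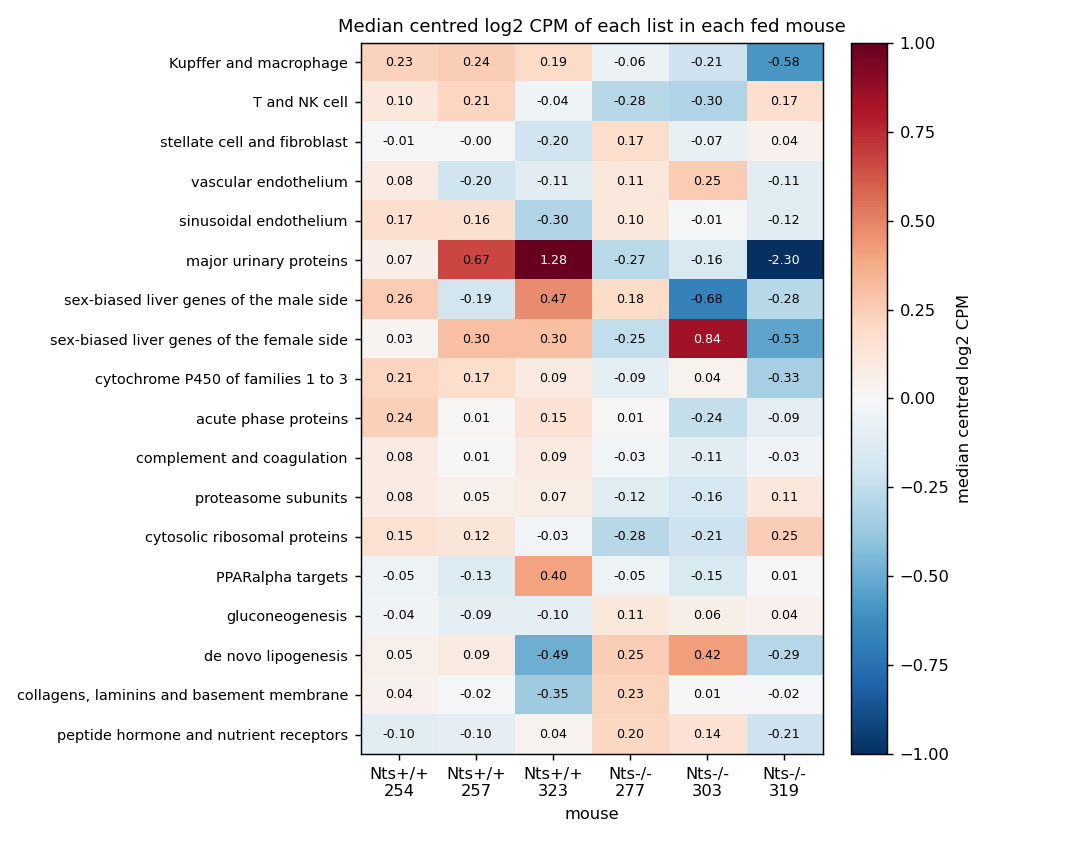
Median of the centred log2 CPM over the tested members of each of 18 gene lists (rows) in each of the 6 fed mice (columns), with the value printed in each cell and colours that end at 1 and -1. The Kupffer cell and macrophage row is positive in the 3 mice labelled Nts+/+ (0.23, 0.24 and 0.19) and negative in the 3 labelled Nts-/- (-0.06, -0.21 and -0.58), while in the ribosomal row mouse 319 (0.25) stands with the mice labelled Nts+/+.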

How the data were processed

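Liver RNA of each mouse was sequenced as 1 library. The authors deposited estimated counts (expected counts of RSEM, which need not be whole and are not scaled between mice) for 48795 genes, placed on GRCm38. The submitters' processing notes also name Trimmomatic for read trimming, and versions are not given. All count columns belong to the 12 mice. Here the counts were rounded and tested in R 4.3.3 with edgeR 4.0.16 (filterByExpr, TMM, robust quasi-likelihood test, 1 model with a mean per group over all 12 mice). The adjustment was that of Benjamini and Hochberg, with 0.05 as threshold, and centred log2 CPM used a prior count of 2. A floor of 3 counts per library covers counting error only. Transcript lengths are those of the longest transcript of GENCODE vM39, found for 99.2% of the tested genes. Groups came from the labels.

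The genes named are neurotensin and study genes (Nts, Ntsr1, Ntsr2, Sort1, Cd36, Ppargc1a, Tfam, Acadl, Hadha), genes called by edgeR or DESeq2, the 15 higher and 15 lower genes with the smallest p (mean of at least 1 CPM, genotypes apart, no predicted genes, pseudogenes or small RNAs), and in each list the 4 smallest p and the markers. Cyp2b10, Mup20, Pck1, G6pc and a few other list genes, and the promoters shown, were picked with their values in view. A gene that meets this rule is not reported here. The members and the 56 lists were chosen with earlier results of these data known, so a list's count is a description. As alternatives, counts were normalized by RLE or by the upper quartile, tested with DESeq2 1.42.0, left unfiltered or required to reach 10 in each fed mouse, fitted on the 6 fed mice alone, or freed of the transcript length trend. An adjusted p under 0.10 was tried too, and each fed mouse was left out in turn. Counts of list members under these settings were added after the data were seen. The test was checked on simulated data with known changes. Strand use in the counting is not given in the sources used here, so overlapping and antisense genes cannot be told apart. Promoters came from RefSeq (build GRCm38.p6), matched by symbol for all 8 genes shown.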

Additional observations from a re-analysis of the deposited data

Results flagged for a closer look

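Nr1i3, the gene of the nuclear receptor CAR, and Rora, a clock gene of the nuclear receptor family, had the genotypes fully apart in fed and in fasted livers, in opposite directions. For Nr1i3 the log2 fold change of livers labelled Nts-/- was -0.86 in fed and 0.32 in fasted livers, a difference of -1.18 with an interaction p of 6.43e-05 and an adjusted p of 0.888 in edgeR. Rora was at 46.3, 51.9 and 52.4 CPM in fed mice labelled Nts+/+ and at 66.2, 53.9 and 62.1 CPM in fed mice labelled Nts-/-, a log2 fold change of 0.27 (0.17 with the transcript length trend removed). Its fasted value was -0.14, and the difference of 0.41 had an interaction p of 0.0179 and an adjusted p of 0.897 in edgeR. No gene passed the adjusted threshold of the interaction test (0 of 13812, with 663 at an unadjusted p under 0.05).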

How the results depend on the processing

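The number of genes past the adjusted threshold was 0 in edgeR under RLE and upper-quartile normalization, with at least 10 counts in each fed mouse, with only the 6 fed mice, with the transcript length trend removed and at an adjusted p under 0.10. It was 12 with DESeq2 and 1 (Nts) with no count filter. With 1 fed mouse left out it was 0 to 2, with Rsc1a1 and Gm44002 called without mouse 323 and Lss and Slc35g1 without mouse 319. The number at an unadjusted p under 0.05 was then 571 (without mouse 257) to 1698 (without mouse 319), with 1356 without mouse 323. The cause was not tested. The log2 fold change of Sort1 was -0.0024 with the length trend removed. It turned sign for 7 of the genes named when 1 mouse was left out, with ranges of -0.069 to 0.30 for Sort1, -0.065 to 0.21 for Tfam, -0.040 to 0.012 for Hadha, -0.74 to 0.13 for Pck1, -0.53 to 0.14 for Cd163, -0.076 to 0.58 for Cyp2b10 and -0.37 to 0.11 for Mpeg1. No paired analysis was possible because the mouse numbers are not shared between the groups and the litters are not named. Of 100 simulated 2-fold changes, 56 were recovered at these depths, in counts without the transcript length trend.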
